A study of Mus musculus with 28 samples.

Results

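The *Nr4a* family consists of 3 genes, *Nr4a1*, *Nr4a2* and *Nr4a3*, out of 55450 annotated mouse genes of which 21951 are protein-coding. The family was taken by name, and each peak or island called at its transcript starts, in the gene bodies and in 100 kb to either side was read. *Nr4a1* (Nur77), *Nr4a2* (Nurr1) and *Nr4a3* (Nor1) encode orphan nuclear receptors, transcription factors without a known natural ligand in the classical pocket. They are immediate early genes, which neurons switch on within minutes of activity or a dopamine signal through kinases and the factor CREB, without new protein synthesis. The proteins bind a site called the NBRE as monomers, and Nr4a1 and Nr4a2 also pair with retinoid X receptors. *Nr4a2* is in addition a lineage factor of midbrain dopamine neurons, whose axons reach the striatum.

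The data came from ICuRuS, which joins INTACT (capture of GFP-tagged nuclei on beads) with CUT&RUN (CnR, in which an antibody directs a nuclease to a histone mark). Nuclei were taken from the striatum of single young adult mice of both sexes, on a C57BL/6J background. All carried R26-CAG-LSL-Sun1-sfGFP, a nuclear envelope tag that is expressed once Cre has removed a stop cassette, and therefore marks cells with a history of Cre activity. In A2a mice Cre came from A2a-cre, which is active in medium spiny neurons (MSNs) of the indirect pathway, and in D1 mice from Drd1-cre, active in MSNs of the direct pathway. No drug or other treatment is named for these samples.

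The series has 28 samples, and 8 of them stand behind the 4 lists analysed here, with 2 pooled replicates for each of 2 cell types and 2 histone marks. The other 20 samples were not analysed here. H3K4me3, a mark of active or ready promoters, was given as MACS2 peaks, 22551 in A2a and 20080 in D1. H3K27me3, the mark laid down by Polycomb repressive complexes, was given as SICER islands, 60191 in A2a and 45760 in D1. Since each list pools its replicates, no value has a spread between mice, no difference between A2a and D1 was tested, and intervals on reads cover counting error only. The islands held 22091634 reads in A2a and 7878685 in D1, so that raw values of the lists are not on one scale. Positions of regions were therefore compared by percentile, the share of a list with a lower −log10 q (peaks) or fewer reads (islands). A region that is missing from a list was not called, which does not show that the mark was absent.

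The labels of the D1 H3K27me3 samples conflict, with A2a as the source name and D1 as the title and cell type. They were taken as D1. At the start of *Drd1*, the D1 dopamine receptor gene, the island in that list held 86 reads against 1958 in the A2a list. At *Adora2a*, the A2a receptor gene, the list labelled D1 had an island of 4153 reads, and the A2a list had none. The striatal projection neuron markers *Ppp1r1b*, *Bcl11b*, *Foxp1* and *Rgs9* had H3K4me3 and no H3K27me3 at the start in both cell types. Of 15 glial markers, 8 in A2a and 5 in D1 had an H3K4me3 peak at the start, against 58.2% and 55.8% of protein-coding genes. These peaks ranged from the 7.71 percentile (*Mobp*) to the 56.1 percentile (*Slc1a2*) in A2a and from 2.75 (*Mag*) to 53.9 (*Slc1a2*) in D1. H3K27me3 was called at the start of 8 glial markers in A2a, *Slc1a2* among them, and 4 in D1, against 21.6% and 15.3% of protein-coding genes. *Gfap* and *Aif1* had neither mark in any list. The part of other cells in the results was not tested.

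The sequence before 1 start of each gene, the one with the strongest H3K4me3 peak by −log10 q, is given first, since CREB-family factors are known to act through sites in such sequences. All 3 genes were found in the RefSeq promoter table (GRCm38.p6), and the stretches below are the 250 bases upstream of a GENCODE start, 5′ to 3′ on the strand of the gene. Capitals mark each TGACG, the CRE half-site, or its reverse complement CGTCA, and in *Nr4a2* also the reverse complement of TATAAA.
*Nr4a1* inner start, chr15:101266596-101266845, plus strand: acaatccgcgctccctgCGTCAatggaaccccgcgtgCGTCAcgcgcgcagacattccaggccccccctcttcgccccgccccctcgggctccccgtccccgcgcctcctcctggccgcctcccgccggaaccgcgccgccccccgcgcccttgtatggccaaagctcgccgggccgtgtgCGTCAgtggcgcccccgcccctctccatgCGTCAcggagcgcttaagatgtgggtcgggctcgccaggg
*Nr4a2* first start, chr2:57124004-57124253, minus strand: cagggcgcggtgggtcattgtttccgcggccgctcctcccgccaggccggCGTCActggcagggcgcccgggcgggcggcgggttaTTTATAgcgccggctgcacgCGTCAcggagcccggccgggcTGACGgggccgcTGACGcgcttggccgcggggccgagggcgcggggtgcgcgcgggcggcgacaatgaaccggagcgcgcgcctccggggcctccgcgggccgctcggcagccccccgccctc
*Nr4a3* first start, chr4:48044903-48045152, plus strand: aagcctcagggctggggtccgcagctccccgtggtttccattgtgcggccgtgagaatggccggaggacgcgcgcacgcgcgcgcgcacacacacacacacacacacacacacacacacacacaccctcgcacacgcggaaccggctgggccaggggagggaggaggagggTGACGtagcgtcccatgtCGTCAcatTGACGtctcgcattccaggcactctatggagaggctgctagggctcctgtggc

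The stretch of *Nr4a1* held 4 CRE half-sites, that of *Nr4a2* held 4 and that of *Nr4a3* held 3. Among the upstream 250 bases of 32851 RefSeq promoters, 17.8% had at least 1 such half-site on either strand and 0.688% had 3 or more. The half-site holds a CpG, and these promoters were not matched to the 3 stretches for GC or CpG content. The half-sites of *Nr4a1* nearest to the start lay 36 to 40 and 65 to 69 bases upstream of it, while those of *Nr4a2* lay 107 to 200 bases and those of *Nr4a3* 49 to 79 bases upstream. The first start of *Nr4a1*, which also lay under a peak in both lists, had 2 half-sites and 1 MEF2 site in the 250 bases before it and is not shown. The full CRE (TGACGTCA) was not in the stretches shown. It was found once among the 11 starts, 40 to 47 bases before the inner start of *Nr4a2*, and 1.55% of RefSeq promoters held it. The 30 bases around it are shown because that start lay under an H3K4me3 peak in both cell types.
*Nr4a2* inner start, chr2:57115067-57115096, minus strand: agccccagtcgTGACGTCAggtcggaaata

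None of the 3 long stretches held the NBRE (AAAGGTCA, in 1.34% of promoters), an AP-1 site (TGANTCA, in 6.75%) or a CArG box (in 1.47%), searched on both strands. *Nr4a2* had 1 MEF2 site (in 2.92% of promoters), 158 to 167 bases upstream, that overlapped its match to TATAAA (in 12.4%). GC content was 74.4% in *Nr4a1*, 80.0% in *Nr4a2* and 65.2% in *Nr4a3*, against a median of 52.4% over RefSeq promoters. The ratio of observed to expected CpG was 1.05, 1.10 and 0.828, against a median of 0.374. These matches describe the letters of the sequence and do not show that a factor was bound.

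The gene start was taken as the annotated 5′ end, with a window from 2 kb upstream to 1 kb downstream in which 1 bp of overlap sufficed. H3K4me3 was called there at all 3 genes in A2a and in D1, against 58.2% and 55.8% of protein-coding genes. H3K27me3 was called at 2 of the 3 in A2a (*Nr4a2* and *Nr4a3*) and at 1 in D1 (*Nr4a2*), against 21.6% and 15.3% of protein-coding genes. Both marks thus coincided at 2 genes in A2a and 1 in D1, where 9.53% and 5.56% of protein-coding genes had both. Each gene had a different arrangement, *Nr4a1* with H3K4me3 alone, *Nr4a2* with both marks in both cell types, and *Nr4a3* with both in A2a and H3K4me3 alone in D1. With 3 genes these counts are a description.

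**Figure D1:**
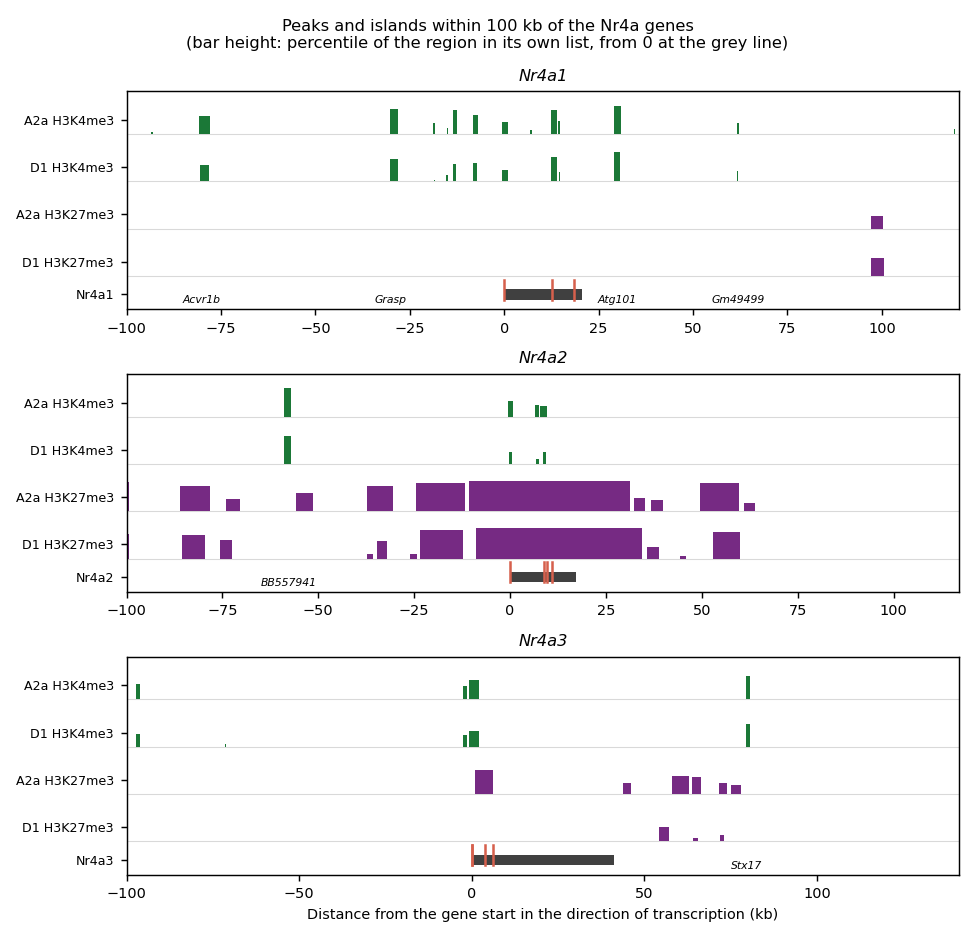
Peaks (green) and islands (purple) of the 4 lists within 100 kb of *Nr4a1*, *Nr4a2* and *Nr4a3*, against the distance from the gene start in kb along the direction of transcription, with bar height as the percentile in the list and red ticks at annotated transcript starts. The islands around *Nr4a2* covered 98.4 kb in A2a and 81.6 kb in D1, while at *Nr4a1* the single island lay 76.6 kb beyond the gene.

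*Nr4a1*, chr15:101254269-101274795 on the plus strand (ENSMUSG00000023034.7), spans 20.5 kb and has 3 distinct annotated starts. H3K4me3 was stronger at the inner start, 12.6 kb into the gene, where Nr4a1-201 and Nr4a1-203 begin. The peak there ran from 12.3 to 13.9 kb in both cell types. In A2a it was enriched 6.13-fold over local background with a −log10 q of 146 (percentile 79.7), and in D1 6.52-fold with a −log10 q of 99.2 (percentile 78.2). The peak at the first start, that of Nr4a1-202, ranked lower. Its fold enrichment was 5.66 in A2a (percentile 38.8 by −log10 q) and 5.51 in D1 (percentile 36.3). A smaller peak with a summit 14.6 kb (A2a) and 14.7 kb (D1) from the gene start was enriched 3.34-fold in A2a and 2.80-fold in D1. The third start, that of the retained-intron transcript Nr4a1-204, had no peak in its window in either list. A peak at 7.04 kb, in the first intron of Nr4a1-202, was called in A2a alone, with a −log10 q of 7.73 (percentile 12.4).

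H3K4me3 was also called at several places upstream of *Nr4a1* that are not annotated starts. The peaks with summits 13.2 and 7.65 kb before the gene had higher fold enrichments than either start of the gene. At −13.2 kb the fold enrichment was 11.6 in A2a and 8.02 in D1, and at −7.65 kb it was 10.8 in A2a and 9.26 in D1. Of all H3K4me3 peaks, 25.4% in A2a (5735) and 21.8% in D1 (4380) had a summit more than 5 kb from any annotated start. Among these, the peak at −13.2 kb had a −log10 q above that of 98.6% in A2a and 95.8% in D1, and the peak at −7.65 kb above that of 96.3% and 96.2%. Weaker peaks were called at −18.6 kb in A2a (−18.4 kb in D1) and near −15.1 kb, and in A2a alone at −93.4 kb (3.91-fold). The one near −18.6 kb was enriched 5.31-fold in A2a against 2.70-fold in D1, and its ratio of 1.97 exceeded 98.8% of the ratios over 17818 peaks that overlapped 1 to 1 between the lists, whose median was 1.08. The D1 peak was near the floor of its list, with a −log10 q of 4.05 (percentile 2.98) over 0.265 kb. This ratio was also the largest among the shared peaks near the 3 genes.

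No H3K27me3 island touched *Nr4a1*. The only one within 100 kb began 97.1 kb past the gene start, inside the keratin gene *Krt80* and the antisense gene *Gm35853*, with 186 reads over 3.20 kb in A2a and 120 reads over 3.40 kb in D1. Of protein-coding genes, 17.5% had H3K4me3 at the start in both cell types and no island in the gene or in 50 kb around it in either, a definition taken from the arrangement at *Nr4a1*. Among the 11 genes that start within 100 kb, 5 had H3K4me3 in the window of their annotated 5′ end and none had H3K27me3 there, though the island in *Krt80* covered an inner start of *Gm35853*. These included *Atg101*, an autophagy gene (percentiles 89.6 in A2a and 94.2 in D1), *Grasp*, which encodes a scaffold protein and shares its peak with the antisense transcript *A330009N23Rik* (81.8 and 71.6), *Acvr1b*, an activin receptor gene (58.3 and 52.3), and *Gm49499* (35.7 and 32.1).

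**Figure D2:**
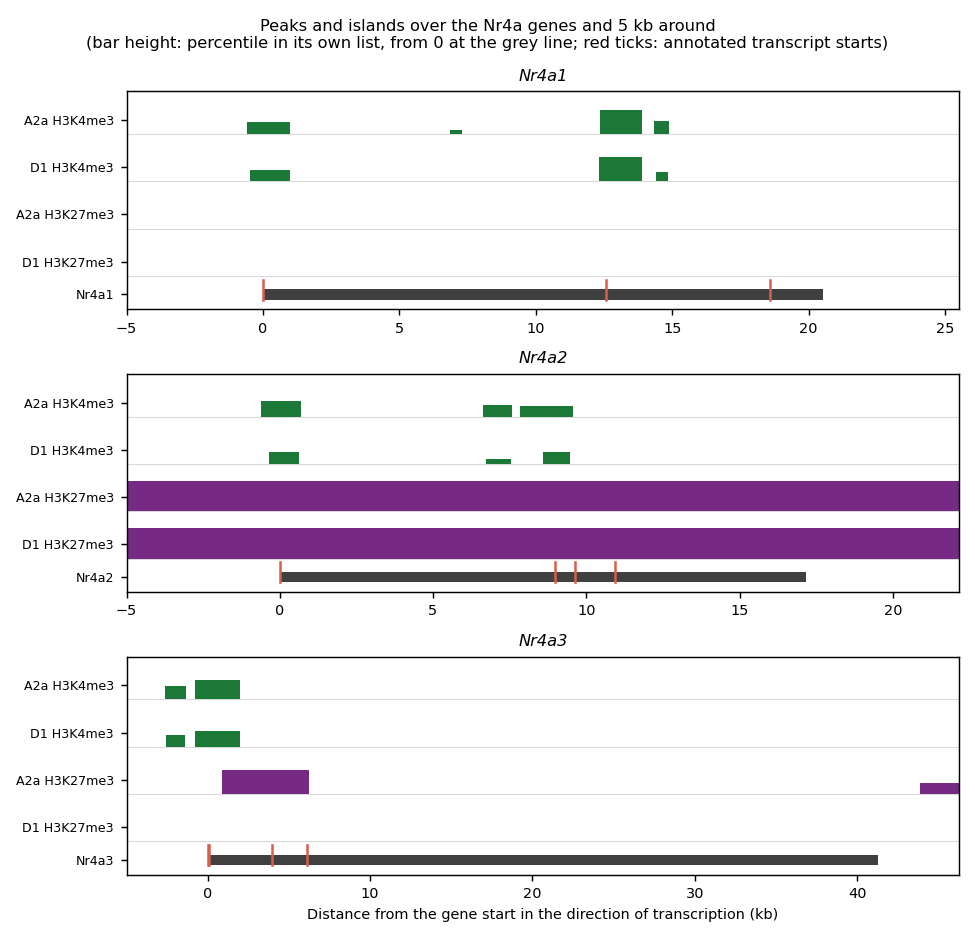
The same regions over each gene and 5 kb around it, against the distance from the gene start in kb, with bar height as the percentile in the list and red ticks at the annotated transcript starts. The tallest *Nr4a1* peak lies at the inner start 12.6 kb into the gene, the *Nr4a2* gene is inside an island in both cell types, and the A2a island of *Nr4a3* begins 0.848 kb after the gene start.

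*Nr4a2*, chr2:57106830-57124003 on the minus strand (ENSMUSG00000026826.13), spans 17.2 kb and has 4 distinct starts, all within H3K27me3. A single island covered the whole gene in each cell type. In A2a it was 42.0 kb long, chr2:57092601-57134600, with 8015 reads (95% exact Poisson interval 7840 to 8192), or 191 reads per kb. In D1 it was 43.2 kb long, chr2:57089601-57132800, with 4235 reads (4108 to 4365), or 98.0 reads per kb. The islands shared 40.2 kb, which was 95.7% of the A2a island and 93.1% of the D1 island. They reached 10.6 kb (A2a) and 8.80 kb (D1) upstream of the gene start and 14.2 kb and 17.2 kb past its 3′ end, so that the edges differed by 1.80 kb and 3.0 kb.

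By reads, the *Nr4a2* island was the 69th of 60191 in A2a and the 46th of 45760 in D1. By reads per kb it was the 32nd in A2a and the 73rd in D1, at 3.05 and 2.63 times the median of the list. Including its surroundings, 45.3% of the *Nr4a2* gene and 100 kb around it was covered in A2a, by 12 islands, and 37.6% in D1, by 11 islands. Over all protein-coding genes the median of this share was 4.98% in A2a and 1.94% in D1, and 96.9% and 98.2% of genes had a lower share than *Nr4a2*. For *Nr4a3* the share was 8.54% in A2a and 2.40% in D1, and for *Nr4a1* it was 1.45% and 1.54%. *Nr4a2* thus stood high in both lists, and the other 2 genes stood nearer to the median.

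**Figure D3:**
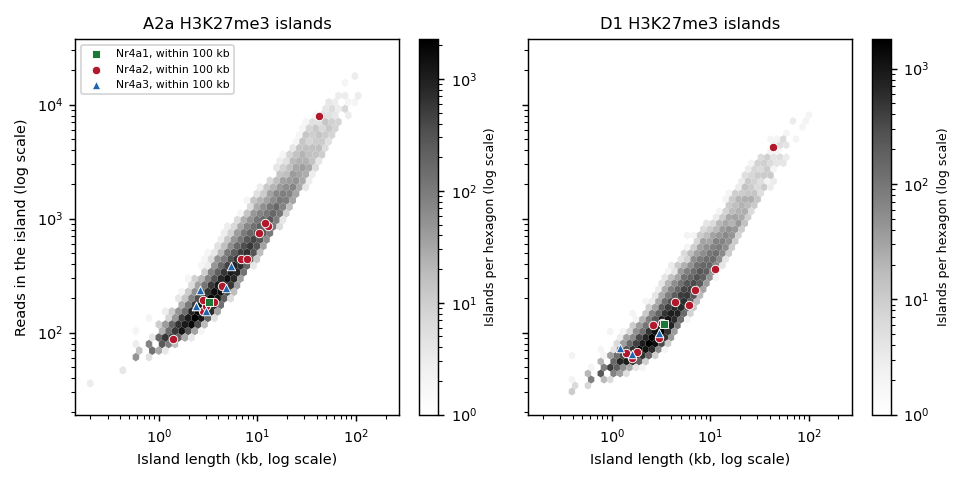
Reads against length in kb (both log scales) for all H3K27me3 islands of A2a and of D1, shaded by the number of islands per hexagon, with the islands within 100 kb of *Nr4a1* (squares), *Nr4a2* (circles) and *Nr4a3* (triangles). The *Nr4a2* gene island, with 8015 reads in A2a and 4235 in D1, sits at the far upper end of both lists. The other islands near the 3 genes sit lower, at most at the 94.0 percentile by reads in A2a and 93.0 in D1.

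Reads per kb at the *Nr4a2* island were 1.95 times higher in A2a than in D1 (95% exact interval 1.88 to 2.02, for counting error). Over 22208 islands that overlapped 1 to 1 between the lists, the same ratio had a median of 1.78 and quartiles of 1.57 and 2.01. The ratio at *Nr4a2* was within these quartiles and above 69.3% of the ratios. Among the 591 such islands of 10 kb or more in both lists, the median was 1.93, and 52.8% of the ratios lay below that of *Nr4a2*. The D1 island also touched a second, smaller A2a island of its own, so *Nr4a2* itself was not among the 1 to 1 islands. The ratio at *Nr4a2* was thus close to that of the median long island.

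H3K4me3 was called at 3 places inside the *Nr4a2* island, each of which lay wholly within it in both cell types. The peak at the first start was enriched 10.2-fold in A2a (−log10 q of 68.8, percentile 52.5) and 7.21-fold in D1 (−log10 q of 27.3, percentile 39.2). By fold enrichment alone this peak was at the 88.1 percentile in A2a and the 61.5 percentile in D1. The peak at the inner start, 8.97 kb into the gene, where Nr4a2-201 begins, was enriched 3.73-fold in A2a and 4.71-fold in D1. Between them, a peak with a summit at 7.09 kb in A2a and 7.42 kb in D1 lay in an intron, with fold enrichments of 3.97 and 3.03. The windows of the starts at 9.63 and 10.9 kb held the inner peak as well, but the peak did not reach these starts. The peak at the first start was thus the strongest H3K4me3 region of *Nr4a2* in both lists, whereas that of *Nr4a1* was at its inner start.

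The ratio of fold enrichment between A2a and D1 was 1.41 at the first start of *Nr4a2*, above 88.5% of the ratios of shared peaks, and 0.792 at the inner start, above 3.42% of them. These starts thus lay on opposite sides of the median of 1.08, and the lists give no replicate error by which to judge the difference. A whole gene within 1 island in both cell types, with H3K4me3 at its start in both, was found at 75 protein-coding genes, or 0.342%, a definition taken from *Nr4a2* itself. An H3K4me3 peak overlapped 5.19% of all islands in A2a and 3.63% in D1. Among the 601 A2a islands that make up the top 1% by reads, 35.3% overlapped a peak and 19 islands (3.16%) overlapped at least 3, as the *Nr4a2* island did. In D1 this was 28.4% of 457 islands, and 12 islands (2.63%) had at least 3.

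No protein-coding gene starts within 100 kb of *Nr4a2*. The transcripts *BB557941* and *4930555B11Rik* start side by side 57.8 kb upstream and shared a strong H3K4me3 peak, enriched 10.4-fold in A2a (percentile 93.4) and 9.34-fold in D1 (percentile 91.1), outside any island. The pseudogene *Gm13527*, 44.3 kb from the start of *Nr4a2* and beyond its 3′ end, lay in a D1 island of 60 reads and in no A2a island.

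*Nr4a3*, chr4:48045153-48086447 on the plus strand (ENSMUSG00000028341.9), spans 41.3 kb and has 4 distinct starts, the first pair of which lie 0.078 kb apart. Its H3K4me3 was long and low. The peak over the first starts spanned 2.78 kb (A2a) and 2.77 kb (D1), at the 96.8 and 97.4 percentiles of length. It was enriched 3.47-fold (A2a) and 3.06-fold (D1), at the 7.39 and 4.43 percentiles of fold enrichment, while its −log10 q of 107 and 51.6 stood at the 64.2 and 51.4 percentiles. The summit lay 1.29 kb past the gene start in A2a and 1.28 kb in D1, in an intron. A second peak 2.62 to 1.34 kb upstream in A2a, and at nearly the same place in D1, had fold enrichments of 2.35 and 2.40. No peak reached the starts at 3.96 kb (Nr4a3-203, protein-coding) or 6.09 kb (Nr4a3-202) in either list.

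In A2a an H3K27me3 island of 5.40 kb, chr4:48046001-48051400, covered those inner starts. It held 384 reads (95% exact Poisson interval 347 to 424), or 71.1 per kb. By reads it was at the 77.5 percentile, where the median over protein-coding genes with an island at the start was 82.9. It overlapped the last 1150 bp of the H3K4me3 peak, 41.3% of its length, and 153 bp of the window around the gene start. It did not cover the first start, so that the call of both marks at *Nr4a3* in A2a rests on this 153 bp overlap. With a minimum overlap of 200 bp, H3K27me3 was called at the start of 1 *Nr4a* gene in A2a in place of 2.

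In D1 no island was called in *Nr4a3*, and the nearest lay 13.0 kb past its 3′ end. Of 1478 A2a islands within 10% of the *Nr4a3* island in both reads and reads per kb, 1197 overlapped a D1 island, which is 81.0% (95% Wilson interval 78.9 to 82.9). This interval treats the islands as independent and covers no spread between mice. Divided by the median ratio of 1.78, the A2a value would correspond to 40.0 reads per kb, where the median D1 island had 37.2. That ratio comes only from islands called in both lists, so it cannot tell whether an island should have been called here in D1. The island at *Nr4a3* was thus in the 19.0% of like islands with no D1 counterpart. Whether D1 differed from A2a at this gene beyond the spread between mice was not tested. H3K4me3 at the start in both cell types with H3K27me3 at the start in A2a and not in D1 was found at 2.56% of protein-coding genes. The other islands within 100 kb began 43.8 kb past the gene start in A2a (5 islands) and 54.2 kb in D1 (3 islands), between the gene and *Stx17*. *Stx17*, which encodes a syntaxin of autophagosomes, had H3K4me3 at its start (percentiles 76.6 and 74.0) and, in A2a, an island of 156 reads.

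Over all 11 distinct starts of the family, H3K4me3 was called in the window of 9 in A2a and 9 in D1, and a peak covered the start itself at 6 in each. Over 93526 distinct starts of protein-coding genes, 53.4% in A2a and 51.3% in D1 had H3K4me3 in the window, and 46.5% and 44.4% were covered. H3K27me3 was called in the window of 8 in A2a and 4 in D1, and an island covered 6 and 4 starts, where the shares over all these starts were 16.1% and 11.2% in the window and 13.0% and 8.78% covered. Starts of 1 gene can share a peak or island. All 4 starts covered by an island in D1 belong to *Nr4a2*.

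The protein-coding genes with the most similar pattern were found from 4 values, the percentile of the strongest region in the start window for each mark and cell type, with 0 where none was called. For *Nr4a1* these were *Ccdc13*, *Pola2* and *Shkbp1* (Euclidean distances 0.757, 0.830 and 1.22 percentile points). For *Nr4a2* they were *Ptprk*, *Thsd7b* and *Kcns3* (2.43, 2.81 and 3.25), and for *Nr4a3* *Adra1a*, *Galnt14* and *Begain* (6.66, 7.22 and 7.53). The nearest genes differed between the 3 members. The members' own H3K27me3 percentiles were far apart, so this difference adds no separate result.

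The other genes of the same families were then read at the same window. Of the other 46 nuclear receptor genes, 29 in A2a and 28 in D1 had H3K4me3 at the start, and 20 and 19 had H3K27me3. Over protein-coding genes, the shares were 58.2% and 55.8% for H3K4me3 and 21.6% and 15.3% for H3K27me3. Both marks were found at 9 in A2a and 8 in D1, against 9.53% and 5.56% of all protein-coding genes. By reads, the *Nr4a2* island was the third of the 22 receptor islands in A2a, after *Nr2f2* (11736 reads) and *Nr2f1* (8854 reads), which encode the COUP transcription factors. In D1 it was the second of 20, after *Nr2f2* with 4691 reads. *Nr2e1*, a receptor gene of neural stem cells, also had both marks in both cell types, with islands of 6548 and 2970 reads. Other receptor genes with both marks in A2a and D1 included *Ppara*, *Pparg*, *Rorb*, *Nr2f1*, *Esrrg* and *Nr0b1*.

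*Esr2*, an oestrogen receptor gene, had both marks in A2a and H3K27me3 alone in D1. H3K27me3 without H3K4me3 was found in both cell types at genes that included *Nr1h4*, *Vdr*, *Hnf4g*, *Nr2f2*, *Esr1*, *Esrrb*, *Nr5a1*, *Nr5a2* and *Nr0b2*, several of which act mainly in liver, gut or gonads, and in A2a alone at *Hnf4a*. The partners of *Nr4a1* and *Nr4a2*, the retinoid X receptor genes *Rxra*, *Rxrb* and *Rxrg*, had H3K4me3 and no H3K27me3 at the start in both. Their peaks were at the 16.3, 84.1 and 77.4 percentiles in A2a and the 6.52, 95.3 and 65.1 percentiles in D1.

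Of 23 early response genes other than the *Nr4a* family, 20 had H3K4me3 at the start in each cell type, and 18 had H3K4me3 alone. Over protein-coding genes, H3K4me3 was called at 58.2% in A2a and 55.8% in D1, and H3K4me3 alone at 48.7% and 50.2%. Among the 18 early response genes were *Fos*, *Junb*, *Arc* and *Npas4*, which encode 3 transcription factors and the synaptic protein Arc. Their peaks were at the 72.8, 79.3, 83.5 and 63.2 percentiles in A2a. Of the 23, H3K27me3 was called at 4 in A2a (*Ier2*, *Klf4*, *Egr2* and *Atf3*) and 3 in D1 (*Ier2*, *Klf4* and *Atf3*). The shares over protein-coding genes were 21.6% and 15.3%. *Ier2* and *Klf4* had both marks in both lists, and the island at *Ier2*, with 1257 reads in A2a and 670 in D1, had fewer reads than that of *Nr4a2*. *Egr2*, which encodes a zinc finger factor, had H3K27me3 alone in A2a (797 reads) and neither mark in D1. *Atf3* had H3K27me3 alone in both at the annotated 5′ end. With any annotated start, 7 early response genes in A2a and 4 in D1 had H3K27me3, the *Nr4a* members included. Each of these also had H3K4me3 at an annotated start, *Atf3* in both cell types and *Egr2* in A2a among them. The median H3K4me3 percentile of the 20 genes with a peak was 72.3 in A2a and 74.6 in D1. Over all protein-coding genes with a peak at the start it was close to this, 72.1 and 71.0. The first-start peaks of *Nr4a1* (38.8 and 36.3), *Nr4a2* (52.5 and 39.2) and *Nr4a3* (64.2 and 51.4) were below all of these medians. The inner-start peak of *Nr4a1* (79.7 and 78.2) was above them, but the other genes were ranked at the annotated 5′ end only.

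**Figure D4:**
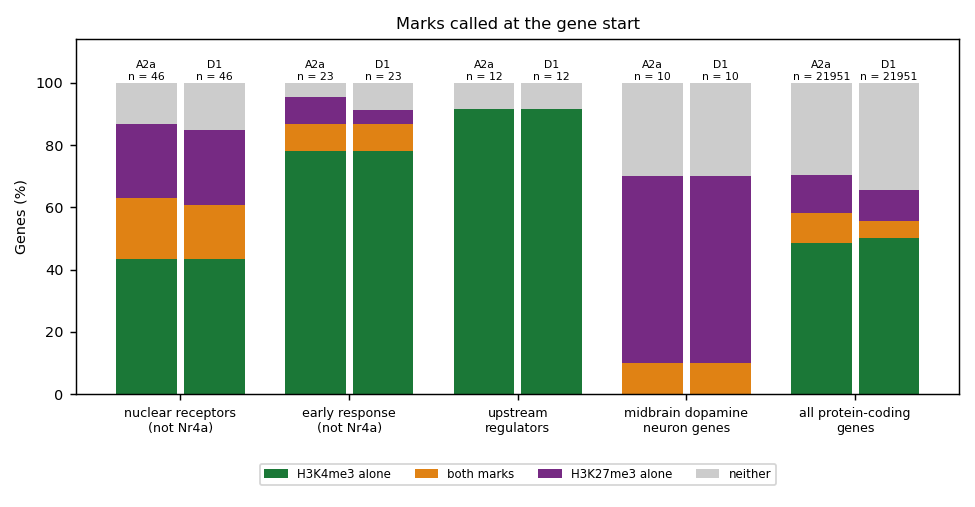
Share of genes (%) with H3K4me3 alone, both marks, H3K27me3 alone or neither at the gene start, by gene list and cell type, with the number of genes above each bar. Of the 23 early response genes outside the *Nr4a* family, 18 had H3K4me3 alone in each cell type, against 48.7% (A2a) and 50.2% (D1) of protein-coding genes. Of 10 midbrain dopamine neuron genes, 6 had H3K27me3 alone, against 12.1% and 9.71%.

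Of 12 regulators that act upstream of the *Nr4a* genes (the CREB, CRTC, SRF, ELK and MEF2 families), 11 had H3K4me3 and none had H3K27me3 at the start in either cell type. Over protein-coding genes, the A2a and D1 shares were 58.2% and 55.8% for H3K4me3 and 21.6% and 15.3% for H3K27me3. Genes that act with *Nr4a2* in midbrain dopamine neurons had another pattern. H3K27me3 was called at 7 of 10 in both cell types, against 21.6% (A2a) and 15.3% (D1) of protein-coding genes. H3K4me3 was called at 1, *Ret*, which encodes a receptor for the GDNF family, against 58.2% and 55.8%. *Th*, *Ddc* and *Aldh1a1* had neither mark at the start in either cell type. The islands at *En1* (10770 reads in A2a and 4716 in D1) and *Foxa2* (10064 and 4342), which encode midbrain patterning factors, held more reads than that at *Nr4a2*. The dopamine transporter gene *Slc6a3* had islands of 2791 and 735 reads. The lists were compared by these counts alone.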

How the data were processed

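CnR was performed on INTACT-purified A2a and D1 nuclei, with 2 replicates for each cell type and antibody (Abcam for H3K4me3, Active Motif for H3K27me3). For alignment to mm10 the authors used Bowtie2 2.1.0, followed by a mapping quality filter in SAMtools 0.1.19, removal of duplicates with Picard and selection of inserts by size. The deposited H3K4me3 lists are MACS2 peaks of pooled replicates with a fold enrichment (a ratio to local background) and a −log10 q-value. The deposited H3K27me3 lists are SICER islands, called against a control that the sources do not name (window 200 bp, gap 600 bp, false discovery rate 0.01), with a count of reads per island that is not normalized. Library totals were not used here, so depth is known only as reads in islands.

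Genes were taken from GENCODE vM21 and sequences from the GRCm38.p6 genome, and coordinates are counted from 1. The members, the gene lists and the arrangements counted over all genes were chosen with earlier results of these data known. The genes named are the members, genes that start within 100 kb of them and carry a mark, the 3 protein-coding genes most like each member, the retinoid X receptors, listed genes with an island at the start, and the cell type markers, a few of which are not reported here. *Krt80*, *Gm35853*, *Fos*, *Junb*, *Arc*, *Npas4*, *Th*, *Ddc* and *Aldh1a1* are exceptions, picked with their values in view. One early response gene (*Cyr61*) was not found by that symbol, so 26 of 27 were used. Poisson, binomial and Wilson intervals are at the 95% level. Overlaps and ranks were tested on simulated data, where all 2000 windows and 1000 ranks were recovered. Python 3.11.15 was used with numpy 2.4.6, scipy 1.17.1 and matplotlib 3.10.9.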

Additional observations from a re-analysis of the deposited data

How the results depend on the processing

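The 36 results were recomputed under 121 alternatives that changed the window, the starts, the minimum overlap, the thresholds, the flank or the ranking, and 91 values stayed within 1.5 times the main count or length, or within the counting interval. Percentiles ranked by another measure were left out of the 91 whatever the size of their change. The number of members with H3K27me3 at the gene start in A2a went from 2 to 1 with an overlap of at least 200 bp, which the 153 bp at *Nr4a3* could not meet. Transcript starts with H3K27me3 in A2a went from 8 to 5 with protein-coding transcripts only, since fewer starts were read. H3K27me3 around *Nr4a1* came to 0 kb in both cell types with 50 kb around, and to 66.9 kb in A2a and 32.4 kb in D1 with 200 kb. Around *Nr4a2* it came to 198 kb in A2a and 123 kb in D1 with 200 kb, and around *Nr4a3* in D1 to 3.0 kb under the stricter thresholds. The A2a to D1 ratio at the *Nr4a2* island was 1.09 times the median of shared islands and 1.01 times that of islands of at least 10 kb. With any annotated start, the marks were read separately and could lie at different starts of a gene. Both marks in A2a were then found at 18 nuclear receptor genes in place of 11 and at 7 early response genes in place of 4.

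The rank of a region depended on the measure. By fold enrichment and by length, the strongest H3K4me3 peak was at the 43.2 and 68.1 percentiles for *Nr4a1* in A2a and 52.5 and 72.3 in D1, at 88.1 and 54.3 for *Nr4a2* in A2a and 61.5 and 40.5 in D1, and at 7.39 and 96.8 for *Nr4a3* in A2a and 4.43 and 97.4 in D1. By reads per kb and by length, the *Nr4a2* island was at 99.95 and 99.65 in A2a and 99.84 and 99.84 in D1, and the *Nr4a3* island in A2a at 74.0 and 73.8. The cause was not tested where none is named.

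No paired analysis was possible because each list pools its replicates, which also prevented leaving out a replicate. The D1 islands held 7878685 reads against 22091634 in A2a, and the part of depth in what was called was not tested.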

Other observations

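Base composition was read for the regions themselves, which the rule did not use. The *Nr4a2* island had a ratio of observed to expected CpG of 0.429 in A2a and 0.429 in D1, above 98.5% and 97.9% of the islands in its list, whose medians were 0.182 and 0.184. The A2a island at *Nr4a3* had a ratio of 0.484, above 99.2% of A2a islands. The islands at these genes cover transcript starts, whereas the islands of the lists were not matched for this. An H3K4me3 peak overlapped only 5.19% of all islands in A2a and 3.63% in D1. The *Nr4a2* island had a GC content of 43.9% in A2a, close to the median of 43.2%.

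Among the H3K4me3 peaks of the family, the small peak upstream of *Nr4a3* had a ratio of 0.918 in A2a, above 97.4% of peaks, and the intron peak of *Nr4a1* near 14.6 kb had a ratio of 0.211, above 8.55%. A peak 96.8 kb upstream of *Nr4a3*, with no annotated start within 5 kb, was enriched 8.86-fold in A2a and 7.45-fold in D1. In A2a its −log10 q exceeded that of 91.6% of peaks that far from a start, and in D1 that of 87.4%.

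Outside the gene island, the ratio of reads per kb between A2a and D1 varied among the islands near *Nr4a2* that overlapped 1 to 1. It was 2.13 and 1.91 downstream of the gene start and 1.34 and 1.98 upstream, where the median over shared islands was 1.78. Past the 3′ end of *Nr4a3* there was a pair of such islands, the first with 90.8 reads per kb in A2a and 40.6 in D1 and the other with 71.7 and 61.7. Their ratios were above 89.9% and 2.28% of those over shared islands.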
